A study of Mus musculus with 2744 samples.

Results

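Ventral interneuron transcription factors were described in mouse embryonic stem cells that were differentiated into motor neurons in culture. They are 9 genes of 23968 in the deposited tables and were taken by their symbols: Lhx1, Lhx5, Pax2, En1, Evx1, Gata2, Gata3, Sox14 and Sim1. The rule that selects them uses symbols and no threshold on a measured value, and it was written with earlier results of these data known. In the embryonic spinal cord each ventral progenitor domain gives rise to its own class of neuron, and each class is known by a code of transcription factors. Evx1 marks excitatory V0 commissural neurons, En1 marks V1 neurons, Gata2, Gata3 and Sox14 mark V2 neurons, with Gata3 in the inhibitory V2b branch, and Sim1 marks V3 neurons. Lhx1, Lhx5 and Pax2 are shared by several, mostly inhibitory, interneuron classes, and Lhx1 is also known in motor neurons that project to dorsal limb muscle. Motor neurons themselves come from the neighbouring domain and carry Isl1, Mnx1 and Lhx3.

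The study sequenced 2744 single cells, 2304 in a main and 440 in a pilot experiment, after papain dissociation of embryoid bodies and sorting of 1 cell per well. All groups share the same motor neuron differentiation. The groups used here are cells labelled Day 2, Day 3, Day 4, Day 5 and Day 6 with no eGFP label in both experiments, Day 6 cells labelled eGFP++ in both, and Day 6 cells labelled eGFP+ on 1 plate of the main experiment. Neither the genotype or strain of the stem cells nor the promoter in front of eGFP is given in the labels. Of these cells 2448 had at least 500 detected genes and were kept, with medians of 141300 to 941800 gene reads per cell. Reads were counted without molecular identifiers, so reads of a gene in 1 cell can be copies of few molecules: a gene with any read had a median read number of 13 in main and 73 in pilot cells. A level is therefore given as CPM, gene reads scaled to an equal total per sum (counts per 1e+06), summed over the cells of a group, and beside it the share of cells that hold the gene, meaning at least 1 read after every cell was thinned to 10000 reads. Intervals of shares are 95% Wilson intervals and cover counting error only. In such sums fewer cells of a type and less RNA per cell cannot be told apart. The labelled course was visible in marker genes. The summed level of 9 motor neuron genes was 1106 CPM (main) and 1363 CPM (pilot) in eGFP++ cells and 3.58 and 17.4 CPM on Day 2, and that of 5 stem cell genes was 79.2 and 132.6 CPM on Day 6 and 4066 and 2604 CPM on Day 2.

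The promoter windows of the 3 members on which the results turn are shown first, because the Lhx1 window also holds the start of a second gene and because Gata2 and Gata3 were often held by the same cells. Each window runs from 250 bases before to 50 bases after a gene start, 5′ to 3′ on the strand of the gene, and comes from RefSeq, where 8 of the 9 members have one. In the Lhx1 window the capitals mark the bases between the starts of Lhx1 and of Lhx1os, a non-coding RNA gene transcribed in the opposite direction. In the Gata2 and Gata3 windows, 1 for each of 2 starts of Gata2 and 1 for Gata3, the capitals mark CG pairs.
Lhx1 (GRCm38.p6, chr11:84525485-84525784, reverse strand): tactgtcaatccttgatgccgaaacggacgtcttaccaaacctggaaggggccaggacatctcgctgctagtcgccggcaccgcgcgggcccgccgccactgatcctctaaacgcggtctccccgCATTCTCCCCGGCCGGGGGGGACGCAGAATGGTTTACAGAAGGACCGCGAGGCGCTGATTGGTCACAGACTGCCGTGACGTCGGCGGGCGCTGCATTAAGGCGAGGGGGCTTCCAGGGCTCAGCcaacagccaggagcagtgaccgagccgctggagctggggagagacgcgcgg
Gata2, upstream start (GRCm38.p6, chr6:88193641-88193940, forward strand): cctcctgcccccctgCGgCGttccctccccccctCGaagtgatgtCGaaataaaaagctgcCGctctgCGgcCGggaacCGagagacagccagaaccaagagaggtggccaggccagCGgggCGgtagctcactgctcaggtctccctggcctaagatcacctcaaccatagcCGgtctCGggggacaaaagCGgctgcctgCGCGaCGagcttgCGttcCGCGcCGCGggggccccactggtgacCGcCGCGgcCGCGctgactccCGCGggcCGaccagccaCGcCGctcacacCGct
Gata2, downstream start (GRCm38.p6, chr6:88198414-88198713, forward strand): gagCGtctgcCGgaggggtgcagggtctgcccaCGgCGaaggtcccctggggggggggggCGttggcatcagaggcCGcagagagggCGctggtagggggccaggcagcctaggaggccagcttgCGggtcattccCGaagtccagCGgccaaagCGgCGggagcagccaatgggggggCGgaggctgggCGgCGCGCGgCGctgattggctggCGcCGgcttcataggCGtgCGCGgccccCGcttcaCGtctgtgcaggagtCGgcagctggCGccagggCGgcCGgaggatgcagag
Gata3 (GRCm38.p6, chr2:9878551-9878850, reverse strand): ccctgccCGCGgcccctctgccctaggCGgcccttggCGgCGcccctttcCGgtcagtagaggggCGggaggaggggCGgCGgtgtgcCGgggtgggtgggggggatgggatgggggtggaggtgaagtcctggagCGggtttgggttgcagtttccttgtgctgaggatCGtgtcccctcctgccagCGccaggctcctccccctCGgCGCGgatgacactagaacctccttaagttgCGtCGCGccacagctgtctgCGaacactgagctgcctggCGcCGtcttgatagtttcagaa
The Lhx1 window held 31 CG pairs, the Gata2 windows 32 and 29 and the Gata3 window 22, and the median over all 32851 windows was 7. None of these 4 windows held AGATAA, the motif of GATA factors, TAATTA, a motif of homeodomain factors, or CATCTG, an E-box of basic helix-loop-helix factors, on either strand. Of all windows 11.2% held AGATAA, 5.29% TAATTA and 17.2% CATCTG. In the GRCm38 annotation (GENCODE M21) Lhx1 lies on chromosome 11 at 84518284 to 84525535 on the reverse strand, Gata3 on chromosome 2 at 9857078 to 9890034 on the reverse strand, with the RefSeq start of its window inside these bounds, and Gata2 on chromosome 6 at 88193891 to 88207032 on the forward strand. Evx1 on the same chromosome overlaps an antisense gene, Evx1os, and the sources used here do not state whether counting used strand.

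Over the days, the factors shared between interneuron classes were read mainly on the last days. Lhx1, a LIM homeodomain factor, was at or near 0 until Day 4 and was read in 21.2% of main cells on Day 6 and in 8.13% on Day 5. Its level in the main experiment was 0.0135, 0, 0.0419, 14.6 and 68 CPM on Days 2, 3, 4, 5 and 6, and in the pilot experiment it was 0, 0, 0, 2.09 and 27.1 CPM. On Day 6 the 4 main plates gave 97.3, 62.5, 79.7 and 35.9 CPM and the 2 pilot plates 24.9 and 30.1 CPM. On Day 5 they gave 7.05, 5.67, 40 and 4.19 CPM in the main and 3.39 and 0 CPM in the pilot experiment. Every pilot plate of Day 6 was above every pilot plate of Day 5, while in the main experiment 1 Day 5 plate, at 40 CPM, lay above the lowest Day 6 plate. Between Day 6 and Day 5 the summed level differed 4.66-fold in the main and 13-fold in the pilot experiment.

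Lhx1 rose with time. The log2 level rose by 4.09 per day over Days 2 to 6 (SE 0.57, adjusted p = 0.0045, edgeR quasi-likelihood test on 10 sums of group and experiment, Benjamini-Hochberg over 15971 genes). The size of this slope rests on sums of 0 to 2 reads until Day 4 and is not to be read as a daily rate. Day 6 against Day 2 gave a log2 change of 12.79 (SE 1.92, adjusted p = 0.0197, edgeR, over 16080 genes). The size of the second value rests on sums of 1 and 0 reads on Day 2 and is no bound of the fold. This call was lost when any 1 of its 4 sums was left out, with adjusted p between 0.0791 and 0.165. No other member was called in Day 6 against Day 2, so that 1 of the 7 members that passed the filter on low counts rose, where 0.585% of all tested genes rose. Evx1 and Sox14 did not pass it. The 7 passed it through the late groups in which they are high, so their share of calls was set in part by the filter.

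**Figure D1:**
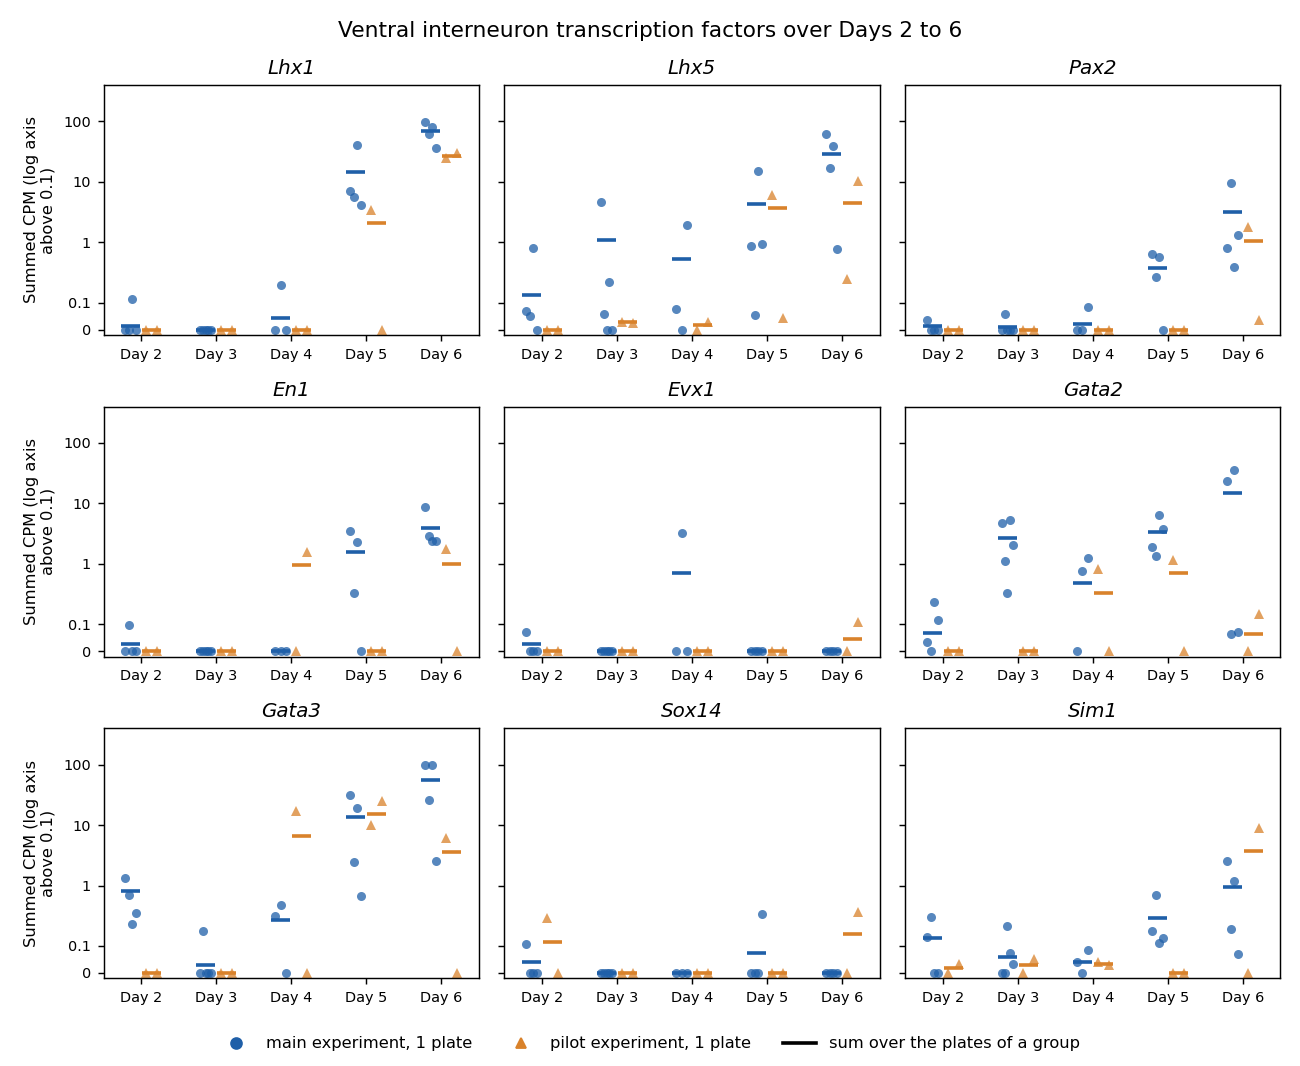
Summed CPM of each of the 9 genes (vertical axis, logarithmic above 0.1 CPM) on Days 2 to 6 (horizontal axis). Circles are single plates of the main and triangles single plates of the pilot experiment, and bars are the sums over plates. Lhx1 reaches 68 and 27.1 CPM on Day 6, while Evx1 and Sox14 stay near 0.

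Lhx5, the closest relative of Lhx1, was read earlier but in few cells. It was at 0.135, 1.10, 0.524, 4.32 and 28.6 CPM over Days 2 to 6 in the main and at 0, 0.0278, 0.0166, 3.73 and 4.45 CPM in the pilot experiment. On Day 3 a single main cell held most of the reads (90.99%). The 4 Day 6 main plates were far apart, at 62.6, 16.95, 38.7 and 0.776 CPM, and the 2 pilot plates were at 0.244 and 10.2 CPM. Its log2 level rose by 2.13 per day (SE 0.50, adjusted p = 0.0367, edgeR). This call was lost in 8 of the 10 fits that left out 1 sum, where adjusted p lay between 0.0527 and 0.181, and it was lost without the experiment term (adjusted p = 0.0803). With Lhx1, 2 of 7 tested members thus rose over the days, against 1.97% of all tested genes. As in Day 6 against Day 2, this share was set in part by the filter on low counts, which the members passed through the late groups.

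Pax2, a paired box factor of inhibitory neurons, was seen on Days 5 and 6 in few cells. It was at 3.19 CPM in the main and 1.04 CPM in the pilot experiment on Day 6, after 0.382 and 0 CPM on Day 5. A single cell held 80.9% of the main and another 98.5% of the pilot reads of Day 6. The slope missed the threshold, with a log2 value of 2.26 per day (SE 0.59, adjusted p = 0.0525, edgeR). It passed in the fit without the 2 main Day 6 plates with most Gata2 (adjusted p = 0.044), in which Lhx5 did not (adjusted p = 0.0912).

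En1, the V1 factor, had 3.90 CPM in the main and 0.997 CPM in the pilot experiment on Day 6, and 1.57 and 0 CPM on Day 5. All 4 main plates of Day 6 had it, at 8.70, 2.89, 2.42 and 2.40 CPM, in 2 to 4 cells each. Sim1, the V3 factor, had 0.940 CPM in the main experiment on Day 6. Its 3.75 CPM in the pilot experiment were the reads of 1 cell. Slopes of 1.95 for En1 (SE 0.90, adjusted p = 0.257) and 1.27 for Sim1 (SE 0.58, adjusted p = 0.251) did not pass the edgeR test.

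Evx1 and Sox14 were almost absent. Evx1 had 34 reads in 2 main cells on Day 4, 3 reads in 1 pilot cell on Day 6 and 2 reads in 1 main cell on Day 2. Sox14 had at most 10 reads in any group and experiment. After thinning, 0 main Day 6 cells held either gene, and the Wilson interval of that share reaches up to 1.07% of cells. Other V0 genes were as thin in the main experiment: Evx2 had 0 reads on Day 6, and Dbx1 49 reads in 1 cell. In the pilot experiment Dbx1, a progenitor factor of the V0 domain, had 2480 reads in 2 cells on Day 6.

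The 2 GATA factors were read on earlier days too. Gata2, which in the spinal cord acts in V2 progenitors and V2b neurons, had 0.0673, 2.64, 0.482, 3.33 and 14.8 CPM over Days 2 to 6 in main cells. In the pilot experiment it had 0, 0, 0.332, 0.712 and 0.0623 CPM. The Day 3 reads of the main experiment came from all 5 plates and 15 cells, with at most 80 reads in 1 cell. Gata3 had 0.807, 0.0297, 0.272, 13.6 and 55.7 CPM in the main and 0, 0, 6.67, 15.5 and 3.55 CPM in the pilot experiment. The pilot experiment thus had its highest Gata3 and Gata2 sums on Day 5 and not on Day 6, and the main experiment on Day 6. The pilot values were 1 cell on Day 4, 3 cells on Day 5 and 1 cell on Day 6 for Gata3. Slopes of 1.77 for Gata3 (SE 0.63, adjusted p = 0.142) and 1.39 for Gata2 (SE 0.67, adjusted p = 0.281) did not pass the edgeR test.

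The 4 main plates of Day 6 did not hold the GATA factors alike. Gata2 was at 23.8, 0.0642, 36.2 and 0.0705 CPM and Gata3 at 99.8, 26.1, 99.2 and 2.54 CPM on the same 4 plates in the same order. The plates with most Gata2 had 7 and 9 cells with a Gata2 read, and the others 1 each. Egfp was lowest on the plates with most Gata2, at 2729, 5571, 2432 and 4283 CPM. Whether the plates came from separate cultures or sort gates is not given in the labels, and the bearing of that on these values was not tested. Without the pair of plates with most Gata2, Lhx1 was still called in Day 6 against Day 2 (adjusted p = 0.0261) and over the days (adjusted p = 0.0065), while the log2 change of Gata2 in Day 6 against Day 2 was 2.08 (SE 3.13), against 6.87 (SE 3.57) with all plates; neither passed the edgeR test (adjusted p = 0.775 and 0.424).

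Between neighbouring days no member was called by edgeR, and at an unadjusted p under 0.05 there were 0, 1, 2 and 1 members in Day 3 against Day 2, Day 4 against Day 3, Day 5 against Day 4 and Day 6 against Day 5, where 3.65, 2.69, 3.7 and 3.17% of all tested genes were. DESeq2 called 0, 1, 2 and 0 members higher in these 4 comparisons, and 0.752, 0.46, 0.703 and 0.317% of all tested genes. Lhx1 came closest, with a log2 change of 8.46 in Day 5 against Day 4 (SE 1.62, unadjusted p = 0.000391, adjusted p = 0.651).

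The GATA factors were almost unread in eGFP++ cells, where Lhx1 was read in about as large a share of cells as on Day 6. In eGFP++ cells, Gata2 had 0 reads in either experiment, and Gata3 0 reads in the main and 1 read in the pilot cells. Day 6 cells with no eGFP label had 849 reads of Gata2 in 18 cells and 3198 reads of Gata3 in 27 cells in the main experiment, and 0.0623 and 3.55 CPM, each from 1 of 71 cells, in the pilot experiment. Setting a sum of 0 to 3 reads, the main eGFP++ level was at least 955-fold lower than Day 6 for Gata3, and for Gata2 the log2 ratio of eGFP++ to Day 6 was -7.99 or lower. These bounds concern reads, which repeat within a cell. In cells, the Wilson interval of the count of 0 reaches up to 1.34% of main eGFP++ cells with a read after thinning. On Day 6 3.39% (1.95 to 5.83%) of main cells held Gata2 and 6.50% (4.37 to 9.56%) held Gata3. No main eGFP++ plate reached any main Day 6 plate for either gene. For Gata2, however, the main Day 6 plates at 0.0642 and 0.0705 CPM had 1 read in 1 cell each. After thinning they had 0 Gata2-holding cells, so on these plates the separation from 0 is a single read. The pilot plates overlapped, since 1 pilot plate of Day 6 had 0 reads of Gata2 and the other 0 reads of Gata3.

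Lhx1 stood at 63.4, 37.5 and 66.3 CPM on the 3 main eGFP++ plates and at 9.22 CPM on the pilot one. On Day 6 the main plates with no eGFP label were at 97.3, 62.5, 79.7 and 35.9 CPM and the pilot plates at 24.9 and 30.1 CPM. The main plates overlapped, and the pilot plate lay below both Day 6 plates. It was held by 36 main eGFP++ cells (12.8%, 9.37 to 17.2%) and by 47 main Day 6 cells (13.3%, 10.1 to 17.2%). Lhx5 lay between these patterns, at 8.47, 0 and 0.0715 CPM on the main eGFP++ plates and 0.0611 CPM on the pilot one. Its highest eGFP++ plate lay above the lowest Day 6 plate. It was held by 2 main eGFP++ cells (0.709%) and by 17 main Day 6 cells (4.80%). En1 had 2.35 CPM in main eGFP++ cells and 3.90 CPM in Day 6 cells, in 3 and 11 cells with a read. Pax2 had 0.563 and 0 CPM in main and pilot eGFP++ cells and 3.19 and 1.04 CPM on Day 6, and Sim1 0.117 and 0.0611 CPM in eGFP++ cells and 0.940 and 3.75 CPM on Day 6. Evx1 and Sox14 had 0 reads in eGFP++ and eGFP+ cells.

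In edgeR no member was called in eGFP++ against Day 6, and 0.0311% of all tested genes fell. The log2 changes were -9.54 for Gata3 (SE 3.64, adjusted p = 0.743), -11.42 for Gata2 (SE 5.02, adjusted p = 0.743), -4.48 for Lhx5 (SE 2.34, adjusted p = 0.743) and -1.02 for Lhx1 (SE 1.11, adjusted p = 0.803). Gata2 and Gata3 had an unadjusted p under 0.05 in edgeR, as did 6.29% of all tested genes. The median over all genes in this comparison was -0.52, so these values are to be read against that shift, and those of the GATA factors depend on the prior count because a group is at or near 0. Gata3 was called lower in eGFP++ cells by DESeq2 (log2 change -9.37, adjusted p = 0.00537) and with plates as the units of the edgeR fit (-10.59, adjusted p = 0.0335), which measures the spread between plates.

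**Figure D2:**
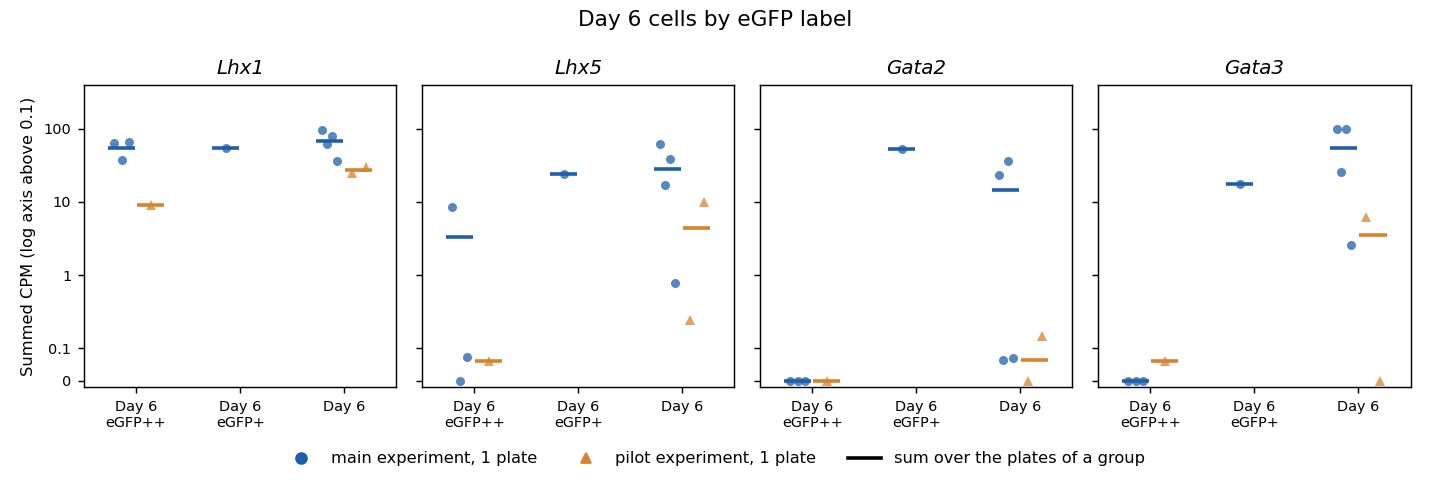
Summed CPM of Lhx1, Lhx5, Gata2 and Gata3 (vertical axis, logarithmic above 0.1 CPM) in Day 6 eGFP++, Day 6 eGFP+ and Day 6 cells with no eGFP label. Circles are main and triangles pilot plates, and bars are sums. Gata2 and Gata3 are at 0 on all 3 main eGFP++ plates, where Lhx1 is between 37.5 and 66.3 CPM.

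The 83 cells labelled eGFP+ came from 1 plate, so there is no replicate of this group and no test. Gata2 had 52.5 CPM in eGFP+ cells and 14.8 CPM in main Day 6 cells, with 47.7% of its 872 reads in 1 cell. Gata3 had 17.5 CPM in eGFP+ and 55.7 CPM in Day 6 cells, Lhx5 23.8 and 28.6 CPM, Lhx1 55.5 and 68 CPM and En1 4.52 and 3.90 CPM. In the cells of this plate Egfp itself was at 1488 CPM, below the 3804 CPM of main Day 6 cells with no eGFP label. By the share of cells, 6.02% (2.60 to 13.3%) of eGFP+ and 3.39% (1.95 to 5.83%) of Day 6 cells held Gata2, and the intervals overlapped. Gata3 was held by 6.02% (2.60 to 13.3%) of eGFP+ and 6.50% (4.37 to 9.56%) of main Day 6 cells. With all reads counted, 8.43% of eGFP+ and 7.63% of main Day 6 cells had a Gata3 read. By CPM, the order for Gata3 in the main experiment was Day 6, eGFP+ and eGFP++, with the eGFP+ value inside the range of the Day 6 plates. For Gata2 it was eGFP+, Day 6 and eGFP++, with eGFP+ above all 4 Day 6 plates.

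Within main Day 6 cells with no eGFP label, cells that held Gata3 seldom had an Egfp read after thinning. It was found in 3 of 23 Gata3-holding cells (13%, 4.54 to 32.1%), against 60.1% of cells without Gata3 (54.8 to 65.3%). On the 4 plates 1 of 7, 1 of 5, 1 of 10 and 0 of 1 Gata3-holding cells had Egfp, and 60.5, 67.9, 45 and 66.3% of the other cells of the same plates did. The share was lower in Gata3-holding cells on each plate. Lhx5-holding cells had Egfp in 3 of 17 (17.7%, 6.19 to 41%), against 59.1% of the others, and Gata2-holding cells in 3 of 12 (25%, 8.89 to 53.2%), against 58.2%. On the 2 plates that had Gata2-holding cells, Egfp was in 2 of 5 and 1 of 7 of them, against 57.8 and 43.4% of the others. For Lhx5 it was in 2 of 6, 1 of 2 and 0 of 9 on 3 plates, against 58.5, 65.5 and 45.7%. The thinned pilot Day 6 cells included 1 Gata3-holding and 1 Lhx5-holding cell, both without Egfp. With all reads counted, Egfp was in all 4 pilot Lhx5-holding cells, against 92.5% of the others. It was then also in the 1 pilot Gata3-holding cell and not in the 1 pilot Gata2-holding cell. En1-holding cells had Egfp in 1 of 7, but with all reads counted in 8 of 11 (72.7%), against 74.9% of the others, so their difference depended on the thinning.

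For Lhx1 the share with Egfp was not lower in holding cells. Of 47 such cells 29 had Egfp (61.7%, 47.4 to 74.2%), against 56.4% of the others (50.8 to 61.8%), and the intervals overlapped. On the 4 plates 10 of 15, 11 of 14, 5 of 12 and 3 of 6 Lhx1-holding cells had Egfp, against 54.8, 62.7, 41 and 66.7% of the others, so the share was higher on 3 plates and lower on 1. Their median of 21 Egfp reads per 10000, against 1 in the others, came mainly from 1 plate. By plate the medians were 2, 79, 0 and 14 in Lhx1-holding cells, against 2, 3, 0 and 3. In the pilot experiment 4 of 5 Lhx1-holding and 39 of 66 other Day 6 cells had Egfp. In eGFP++ cells, the median was 84.5 Egfp reads in the 36 Lhx1-holding and 99.5 in the other main cells. As a scale, Egfp was found in 76 of 81 cells with Isl1 (93.8%), a motor neuron factor, and in 46.2% of cells without it.

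Among 8596 genes held by at least 10 of these Day 6 cells, the difference in the share with Egfp between holding and other cells had a median of -0.578 percentage points, with -20.9 and 18.6 at the lower and upper 5%. Gata3 had -47.1 points and 4 genes were lower. Lhx5 had -41.4 points with 14 genes lower, Gata2 -33.2 points with 61 lower, and Lhx1 5.35 points with 6186 lower. These ranks pool 4 plates that differ in Egfp and over which the genes are spread unevenly, describe 1 set of cells and carry no p. Counting all reads in place of thinned ones, Egfp was found in 40.7% of 27 Gata3-holding and 77.7% of other cells, in 44.4% of 18 Gata2-holding and 76.5% of other cells, and in 54.8% of 31 Lhx5-holding and 76.8% of other cells. On Day 5 the direction depended on the count. Thinned to 10000 reads, 1 of 5 Gata3-holding and 40.2% of other main cells had Egfp, and thinned to 5000 reads, 3 of 4 and 40.2%. With all reads 12 of 13 Gata3-holding cells had it (92.3%), against 76.2% of the others, and with at least 3 reads of Gata3 10 of 10, against 76.1%. In the eGFP+ plate none of the 12 cells that held any member other than Lhx1 had Egfp, against 39 of 71 others. With all reads counted 6 of 17 had it (35.3%), against 65.2% of the others. Egfp was also read in 25.2% of main cells on Day 2, at 13.4 CPM, and had 0 reads on Day 2 of the pilot experiment, so that a single Egfp read is not specific to late cells.

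**Figure D3:**
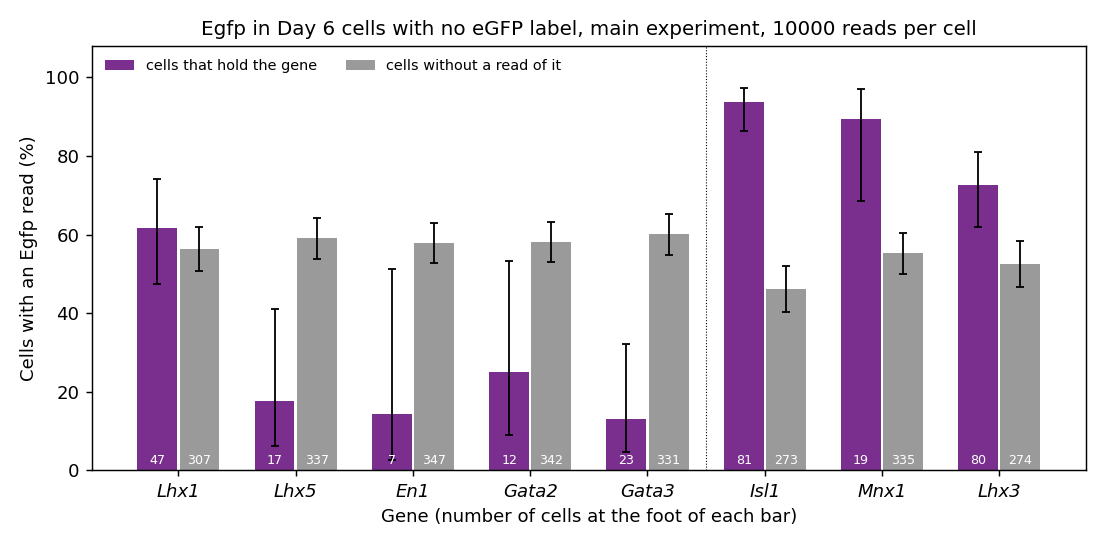
Share of main Day 6 cells with no eGFP label in which Egfp was read (vertical axis, percent), for cells that hold a gene (left bar of a pair) and cells without it (right bar). Error bars are 95% Wilson intervals and numbers are cells. Cells with Lhx5, Gata2 or Gata3 are between 13 and 25%, and cells with Isl1 at 93.8%; the 7 En1 cells are at 14.3%, a value that was 72.7% of 11 with all reads counted.

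Some cells held several members. Of the main Day 6 cells 73 held at least 1 member (20.6%), 27 held at least 2 and 3 held 4. Gata2 and Gata3 were both in 9 cells, where the product of their shares gives 0.780. Lhx5 and Gata3 were both in 10 cells, against 1.11, and Lhx5 and Gata2 in 8, against 0.576. Lhx1 met Lhx5 in 7 cells, against 2.26, En1 in 4, against 0.929, and Gata3 in 9, against 3.05. In main eGFP++ cells 38 held a member (13.5%) and 5 held at least 2. The cells share their cultures, and after thinning Gata3-holding cells had a median of 1692 genes and the others 1462. The bearing of this on the counts was not tested.

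Cells with Gata3 also held Tal1, a basic helix-loop-helix factor of V2b neurons, and genes of inhibitory transmission. Tal1 was in 13 of 23 Gata3-holding cells (56.5%) and in 1.51% of the others. Slc32a1, the vesicular transporter of GABA and glycine, was in 11 of 23 (47.8%) and in 2.12% of the others, and Gad2, a GABA-synthesising enzyme, in 7 of 23 (30.4%) and 3.32%. Every Gata3-holding cell had at least 1 of 8 pan-neuronal genes, against 79.5% of the others, and 26.1% had a motor neuron gene, against 47.7%. Gata2 and Gata3 are also used outside the nervous system: 1 of the 23 cells held a gene of the 4-gene blood list and 1 a gene of the 4-gene trophectoderm list, against 0.302% and 1.51% of other cells. In the whole main Day 6 sum the blood list had 2.56 CPM with 1 of 4 genes at 0, and Gata1 2 reads. The trophectoderm list had 23.4 CPM there with 2 of 4 genes at 0, and 1.31 CPM in the main Day 5 sum. Of the main Day 6 value, 22.65 CPM were Tfap2c, with 95.6% of its reads in 1 cell, and Cdx2 had 0 reads. The part of other cell types in these sums was not tested.

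Likeness to a member over single cells was ranked over all genes held by at least 10 cells. The phi coefficient with Gata3 over the main Day 6 cells was highest for Tal1 (0.617), Gata2 (0.521) and Slc32a1 (0.513). For Gata2 it was highest for Hoxb1 (0.596), Lhx5 (0.542) and Gata3, and for Lhx5 for Cacna2d3 (0.549), Gata2 and Hoxb1 (0.493). These genes share cells, plates and depth, and the pilot experiment, with 1 Gata3-holding cell, gives no value to set beside most of them. That cell held Tal1.

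Lhx5-holding cells held Slc32a1 in 9 of 17 (52.9%, against 2.67% of others) and Tal1 in 8 of 17 (47.1%, against 2.97%). Of these 17 cells 10 also held Gata3. The set thus overlaps the Gata3-holding one, and their shared companions are no separate finding. En1-holding cells did not hold Tal1 in any of 7. They held Foxd3 and Pax8, both known in V1 neurons, in 3 of 7 each, against 1.15% of other cells for either gene, and Gad1 in 3 of 7.

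Lhx1-holding cells were mixed. On Day 6, 10 of 47 held Slc32a1 (21.3%, against 2.61% of others), 8 held Tal1 (17%, against 3.26%) and 6 held Pax8 (12.8%, against 0.326%). Isl1 was in 8 (17%, against 23.8%) and Lhx3 in 10 (21.3%, against 22.8%). Motor neuron progenitor genes were in 17%, against 44.6%. In main eGFP++ cells Tal1 had 0 reads in any cell, with or without Lhx1. Of the 36 Lhx1-holding eGFP++ cells, Isl1 was in 18 (against 55.3% of others) and Lhx3 in 18 (against 44.7%). Slc18a3, the vesicular acetylcholine transporter, was in 20 (55.6%, against 56.1%).

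**Figure D4:**
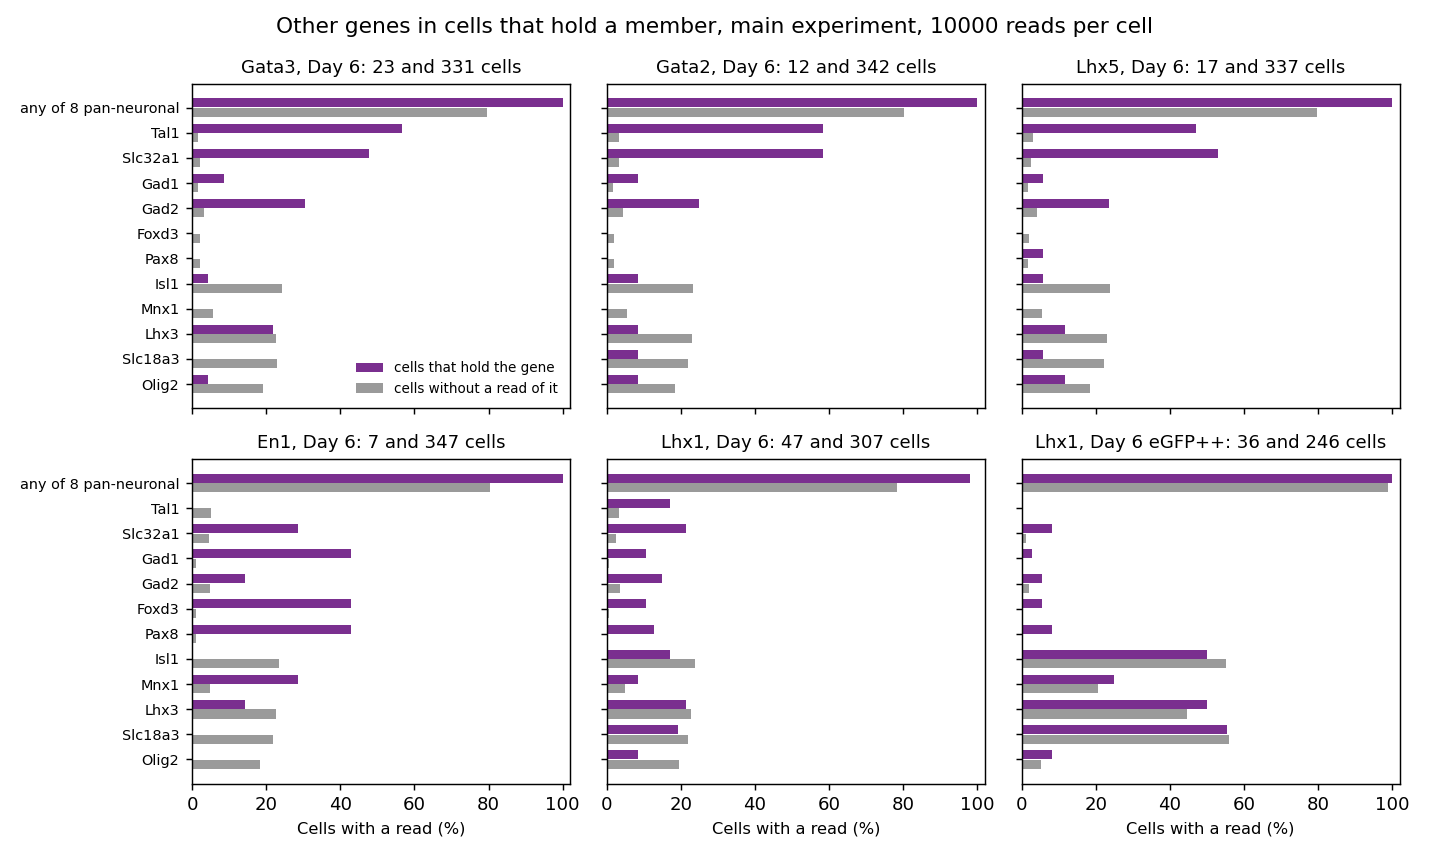
Share of cells with a read of the genes named at the left, or of any of 8 pan-neuronal genes (horizontal axis, percent), in main cells that hold the member named in the panel title (upper bar) and in cells without it (lower bar). Tal1 and Slc32a1 are in 56.5 and 47.8% of Gata3-holding cells, and Slc18a3 in 55.6% of Lhx1-holding eGFP++ cells.

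Lhx1os, the divergent neighbour of Lhx1, had its highest sums over the days on Day 6 too. It had 0.458, 0.159, 1.53, 3.55 and 28.2 CPM over Days 2 to 6 in the main experiment and 0, 0, 0, 0.348 and 9.90 CPM in the pilot experiment. Its log2 slope of 2.16 per day (SE 0.56) missed the threshold (adjusted p = 0.0512, edgeR). Both genes were in 18 main Day 6 cells, where the product of shares gives 5.84, and in 4 of the 5 pilot Day 6 cells that held Lhx1. In eGFP++ cells Lhx1os had 35.4 CPM in the main and 39.3 CPM in the pilot experiment, against 28.2 and 9.90 CPM on Day 6, a log2 change of 1.78 (SE 1.92, adjusted p = 0.801).

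Across the 12 sums the levels most like that of Lhx1 were those of Ppp1r14a (Pearson r = 0.980), 2610203C20Rik (0.975) and Chgb (0.962), on log2(CPM + 1) centred within experiment. For Gata3 they were Ccdc88c (0.901), Rwdd4a (0.875) and Fam181a (0.871). These values were picked as the highest of all tested genes and are a description. Between members, r was 0.785 for Lhx1 and Lhx5, 0.789 for Gata2 and Gata3 and 0.331 for Lhx1 and Gata2.

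Of the companion lists, V2 had 1 of 7 tested genes called over the days, Lhx3, which it shares with motor neurons, with a log2 slope of 2.61 (SE 0.52, adjusted p = 0.0195, edgeR). The lists of V0, V1, V3, dorsal interneuron and inhibitory transmitter genes had no gene called in any of the 6 comparisons or over the days. Of their genes 2 of 4, 6 of 6, 3 of 3, 5 of 10 and 4 of 5 were tested. Between neighbouring days edgeR called at most 0.0498% of all tested genes in a direction, so none called there says little about a list. In the V1 list Foxp2 came closest, with a slope of 2.38 (SE 0.63, adjusted p = 0.0558). The motor neuron list had 3 of 8 tested genes called upward over the days, Lhx3, Slc18a3 with a log2 slope of 2.73 (SE 0.54, adjusted p = 0.0193) and Chat with 2.11 (SE 0.51, adjusted p = 0.0403). Among V2b companions, Tal1 had 0 reads in main eGFP++ cells and 43.2 CPM in main Day 6 cells, and Slc32a1 9.38 and 26.2 CPM.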

How the data were processed

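Single cells were sequenced by a modified CEL-seq protocol, per the labels. The authors deposited raw read counts per gene and cell, 1 table per plate; the submitters' processing notes name TopHat2 2.1.1 and HTSeq 0.6.1, and the genome build was not given in the sources used. Of all reads in the tables, 34.9% stood in 5 summary lines and 6.16% in spike-ins, and both were left out, as were 27 gene names read as dates or not alike in all tables. A further 40 columns matched no sample and were not used. Cells with at least 500 detected genes were kept, and 296 were left out. Total gene reads per sum were 16370502 to 100972780.

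Counts were summed per group and experiment and tested with edgeR 4.0.16 in R 4.3.3 (quasi-likelihood, TMM scaling, filterByExpr, terms for group and experiment, Benjamini-Hochberg over all tested genes, threshold 0.05). The 12 sums of groups present in both experiments entered 1 fit, and the 10 sums of Days 2 to 6 the slope. The study's design text calls the experiments 2 biological replicates; they are the pairing, and deviations between them correlated between groups at 0.0326 to 0.143 (median 0.103, 15 pairs). The eGFP+ plate was described only. Shares of cells and Egfp used cells thinned to 10000 reads, which 99.32% of main and 99.74% of pilot kept cells reached. No 2 kept cells had equal counts.

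The members and the marker lists were chosen with earlier results of these data known. All 9 members are named. Of a companion list, at most 3 genes with the smallest adjusted p are named, and genes like a member are the 3 with the highest Pearson r over sums or phi over cells; other companions were named after their values were seen. Alternatives were DESeq2 1.42.0, RLE scaling, no filter, at least 1000 genes per cell, cells with a read as the count, no experiment term, plates as units, only the groups compared, other thinning and leaving out each sum or plate. The fits were tested on simulated data.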

Additional observations from a re-analysis of the deposited data

Results flagged for a closer look

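In 10 of 24 sets of 4 or 5 main plates, 1 plate lay far above the others for a member. The limit used is one that chance passes in about 1 in 20 groups of normally distributed values. That rate does not apply here, since a set with reads in 1 cell only passes it always, and most of these were 1 or 2 cells. Lhx1 on Day 5 had 40 CPM on 1 plate and 7.05 CPM on the next, from 705 reads in 11 cells. The same plate had Lhx5 at 15 CPM in 6 cells, with 0.946 CPM on the next plate. Lhx5 had 0.806 CPM on 1 Day 2 plate, from 1 cell, and 4.66 CPM on 1 Day 3 plate, from 2 cells. Pax2 had 9.50 CPM on 1 Day 6 plate, from 1 cell, and En1 8.70 CPM on another, from 3 cells. Gata3 had 0.179 CPM on 1 Day 3 plate, from 1 cell. Sox14 had 0.106 CPM on 1 Day 2 plate and 0.338 CPM on 1 Day 5 plate, each from 1 cell. Sim1 had 0.702 CPM on 1 Day 5 plate, from 1 cell. The causes were not tested.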

How the results depend on the processing

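The number of members called depended on the test and on the unit of replication, and the causes were not tested. In Day 6 against Day 2, edgeR called 1 member, DESeq2 called 3, plates as units 7, cells counted without a filter on low counts 4, and leaving out any 1 sum 0 to 0. Over the days edgeR called 2, DESeq2 5, plates as units 6, cells with a read counted 1 (without a filter 5), the fit with no replicate block for experiment 1, and leaving out 1 sum 1 to 2. With cells counted and the filter on low counts kept, Lhx1 was the only member tested, in every comparison and over the days. With plates as units 6 members were tested over the days. In Day 6 against Day 5 the 0 became 1 with cells counted, with and without the filter, where 1.13 and 0.66% of all genes were called higher. In Day 5 against Day 4 the 0 became 2 with DESeq2 and 1 with plates (0.703 and 0.373% of all genes higher), in Day 4 against Day 3 it became 1 with DESeq2 (0.46%), and in eGFP++ against Day 6 it became 1 with DESeq2 and 1 with plates. The block changed no other count of members. The fit of cells counted without a filter, and that without 2 Day 6 plates, were chosen after seeing the data. Only the log2 change of Lhx1 in eGFP++ against Day 6 changed direction, from -1.02 to 0.023 with cells counted and 0.0066 without the filter, none past the threshold. Over all tested genes, Day 6 against Day 2 had 94 higher and 40 lower by edgeR, 1303 and 732 by DESeq2 and 1566 and 1411 with plates, and 8.64% of genes were higher with cells counted without the filter; eGFP++ against Day 6 had 0.0311% lower by edgeR, 2.8% by DESeq2 and 1.45% with plates. Over the days 1.97% of genes were higher by edgeR, 8.73% by DESeq2 and 10.5% with plates, 13.4 and 9.32% with cells counted with and without the filter and 1.33% without the block, and 2.21%, 7.18% and 9.72% were lower in the first 3. Of the members' log2 changes under alternatives, 2 changed direction, 26 newly passed the threshold and 14 no longer did. With 2 sums a group, reads that repeat within a cell and members held by few cells, a missed threshold does not show that a level did not differ.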
